A study of Mus musculus with 12 samples.

Results

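Abdominal fat pads of female mice that lack p47phox were compared with fat pads of wild type mice, both after a high fat diet. The difference is taken between 6 of the 12 Affymetrix arrays of the series, 3 pools of null against 3 pools of wild type fat pads. The other 6 arrays hold 3 pools of each genotype on a casein diet. They entered the same fit, so each standard error and p-value rests on their spread too. Their own genotype difference is given beside that on the high fat diet. All mice were C57BL/6 females, and the diets began on postnatal day 28 and lasted 13 weeks. The null mice are labelled P47KO. The labels name neither the allele nor how many animals made up a pool, so every p-value measures only the spread between pools. All 34958 probe sets with 1 gene symbol were kept and averaged into 18194 genes. To keep adipose tissue apart from reproductive tissue, lists of marker genes were used: 137 measured genes of adipocytes, 115 of the other cells of a fat pad and 83 of ovary and oviduct. The study's title states its purpose, which was to learn whether females without p47phox differ in adipose gene expression and in their response to a high fat diet.

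The protein p47phox, encoded by Ncf1, is the cytosolic organiser of the phagocyte NADPH oxidase. On activation it carries the cytosolic subunits to a membrane-bound flavocytochrome, which then passes electrons from NADPH to oxygen and makes superoxide. White fat stores triglyceride in adipocytes, which also secrete hormones such as leptin, and it holds vessels, progenitors and immune cells. In female mice one of the abdominal fat pads lies against the ovary, the oviduct and the uterine horn, and these organs make inhibin, steroid-forming enzymes, zona pellucida proteins and oviductal glycoprotein in amounts that fat does not.

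Values are on a log2 scale and each probe set was centred by the authors on its median over the 12 arrays, so a value gives the distance from that median and no expression level. Array quality and signal over background therefore cannot be read, and the labelled tissue cannot be checked by the level of its markers. Adipoq, the adipocyte hormone adiponectin, spanned only -0.61 to 0.27 over the 12 pools. The median of the skeletal muscle list stood apart at 4.61 in wild type high fat pool 2 and 3.77 in null high fat pool 1, against -1.66 to -1.01 in the other high fat pools. Null high fat pool 2 and pool 3 each decide the calls described here: with either one left out, 0 genes passed the threshold with limma (smallest adjusted p = 0.0572 and 0.0548), although 3535 and 3129 genes had an unadjusted p under 0.05. Each gene reported below as risen or fallen is subject to that limit. The count of 1077 genes given below was 170, 210 and 32 without wild type high fat pool 1, 2 and 3, 1617 without null high fat pool 1 and 456 without null casein pool 2. Without both muscle-rich pools it was 437, of which 370 were among the 1077.

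On the high fat diet 1077 of 18194 genes (5.92%) differed between null and wild type pools at an adjusted p under 0.05 in limma, 584 of them higher (3.21%) and 493 lower (2.71%) in the null. The largest rises were those of Hsd3b1, an enzyme of steroid synthesis, and Inha, a subunit of inhibin, at 8.26 and 6.79. Among the largest falls were genes of the growing adipocyte, Mest, Npr3 and Lep, with differences of -2.76, -2.39 and -1.64. Changes of more than 2-fold were found for 204 of the genes that rose and 47 of those that fell. The groups did not overlap, with all 3 null pools above or all below all 3 wild type pools, for 5866 genes (32.2%), of which 2714 were higher (14.9%) and 3152 lower (17.3%). Of the genes that rose, 21 stand on the ovary and oviduct lists and 3 on the adipocyte lists. Of the genes that fell, 16 stand on the adipocyte lists, 6 on those of other fat pad cells and none on the ovary and oviduct lists. Most of the changed genes, 543 that rose and 467 that fell, are on no list. Counts of list members below are to be read against these shares of all genes.

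**Figure D1:**
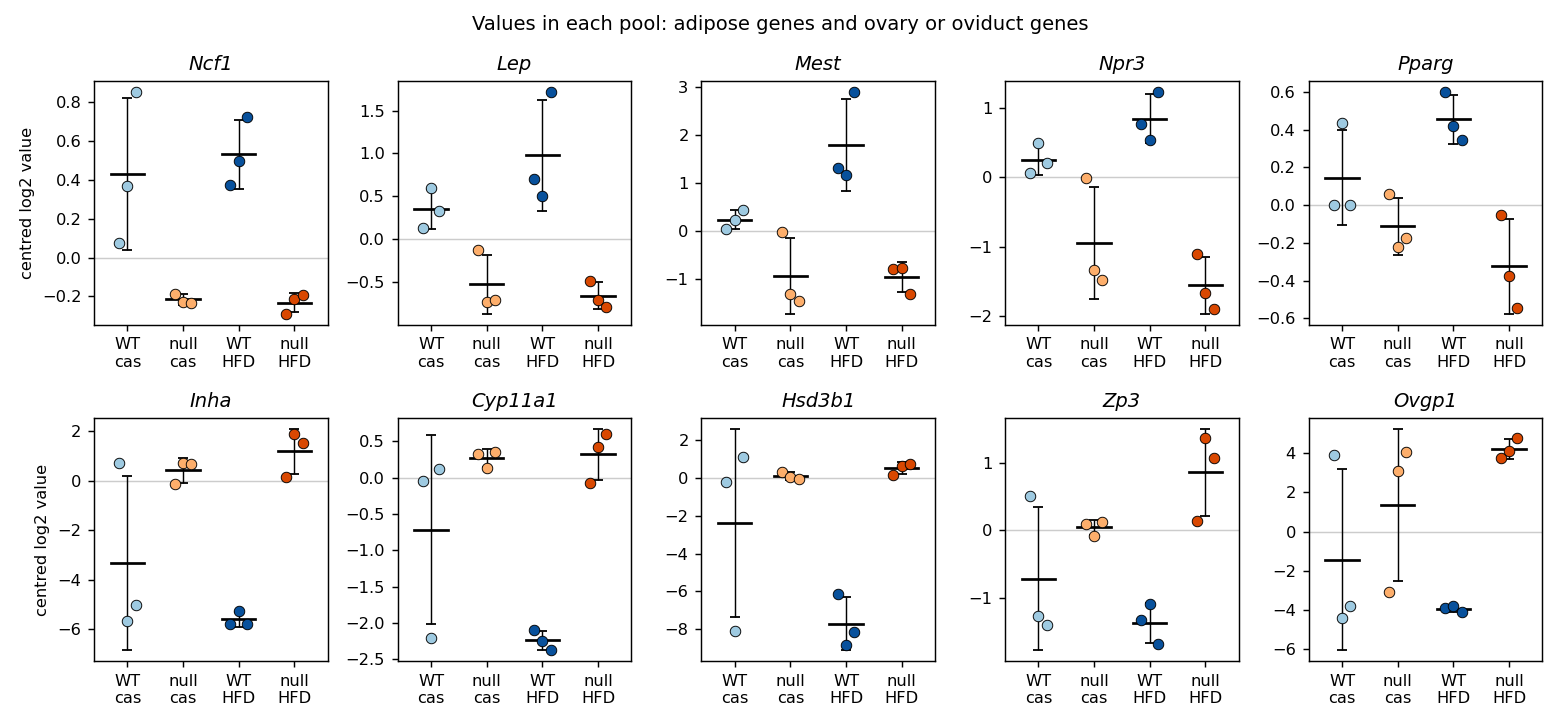
Values of 10 genes in each of the 12 pools on the centred log2 scale (vertical axis, different for each gene), with wild type (WT) and null pools on casein (cas) and on the high fat diet (HFD). Points are pools and bars are group means with the SD of 3 pools. Mest, Npr3, Lep and Pparg lay lower in all null high fat pools than in all wild type high fat pools, and Inha, Cyp11a1, Hsd3b1, Zp3 and Ovgp1 lay higher.

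The targeted gene was read first. Ncf1, measured by 3 probe sets, had values of 0.37, 0.50 and 0.72 in the wild type high fat pools and -0.29, -0.21 and -0.19 in the null high fat pools. Every null pool lay below every wild type pool, and the difference was -0.76 ± 0.16 (SE over 3 pools in each group; adjusted p = 0.0312 in limma), a 1.7-fold fall. On casein the difference was -0.65, again without overlap. How the probe sets lie to the mutated part of the gene was not examined. Of the 10 measured genes on the list of oxidase subunits, Ncf1 and Duoxa1 fell and none rose. Duoxa1, the maturation factor of a dual oxidase, had values of 0.48, 0.45 and 1.17 in wild type against -0.05, 0.00 and -0.18 in null pools, and its difference was -0.77 ± 0.17 (adjusted p = 0.033). Cybb, the catalytic subunit that p47phox serves, differed by -0.50 ± 0.18 and did not pass (adjusted p = 0.124), although its null pools all lay below its wild type pools. Among the 19 measured genes of the antioxidant list none passed, and their median difference was -0.08.

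The adipocyte genes lay lower in the null pools. Over the 137 measured genes the median difference was -0.25, against -0.03 over all genes. Of them 102 were below 0, as were 56.6% of all genes, while 16 fell (2.71% of all genes) and 3 rose (3.21%). In bulk tissue fewer cells of a type and less RNA of these genes per cell cannot be told apart. The 11 measured genes of the list that tracks the growth of fat mass had the lowest median of the adipocyte lists, -0.77, with 5 that fell and none that rose. Mest, an imprinted gene of the endoplasmic reticulum that rises in expanding fat cells, had values of 1.31, 1.17 and 2.90 in wild type against -0.80, -0.77 and -1.33 in null pools. Wild type pool 3 was the highest of all 12 pools and no null pool came near the lowest wild type pool. The difference was -2.76 ± 0.46 (SE; adjusted p = 0.021), a 6.77-fold fall.

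Lep, the gene of the satiety hormone leptin, had values of 0.71, 0.51 and 1.71 in wild type against -0.49, -0.71 and -0.79 in null pools. The groups did not overlap, and the wild type pools were further apart than the null pools. Its difference of -1.64 ± 0.28 (adjusted p = 0.0225) is a 3.11-fold fall. Npr3, the clearance receptor that removes natriuretic peptides and so limits lipolysis, had values of 0.76, 0.53 and 1.22 in wild type against -1.11, -1.67 and -1.90 in null pools. All 3 of its probe sets were lower in the null, and the gene fell 5.26-fold (-2.39 ± 0.36, adjusted p = 0.0165). Rarres2, the precursor of the adipokine chemerin, fell by 0.62 with an SE of 0.15 (adjusted p = 0.0405). Adipoq and Retn did not pass: Adipoq differed by -0.20 ± 0.18 (adjusted p = 0.536) with overlapping pools, and Retn, the gene of resistin, by -0.31 ± 0.11 (adjusted p = 0.104).

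Caveolae are flask-shaped membrane pits that are dense in adipocytes and endothelium. Of the 7 measured genes of their coat 6 were below 0 (56.6% of all genes), and 3 fell (2.71% of all genes). Cavin3 had values of 0.71, 0.39 and 1.01 in wild type against -0.24, -0.28 and -0.38 in null pools, a 2-fold fall (adjusted p = 0.0299). Cav1 fell by 0.65 (adjusted p = 0.0263) and Cav2 by 0.77 (adjusted p = 0.0362), both without overlap of the groups. Since these genes are active in endothelium too, the endothelial list is given beside them: 20 of its 21 measured genes were below 0 (56.6% of all genes), the groups were separated with the null lower for 17 (17.3% of all genes), and 4, Erg, Rgcc, Pecam1 and Esam, fell (2.71% of all genes). Pecam1, an adhesion molecule of endothelial junctions, had values of 0.24, 0.47 and 0.77 in wild type against -0.16, -0.11 and -0.09 in null pools, a difference of -0.62 ± 0.16 (adjusted p = 0.0476). The endothelial factor Erg differed by -0.82 ± 0.21 (adjusted p = 0.0463).

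Of 17 measured transcription factors of the adipocyte 15 were below 0 (56.6% of all genes), and 5 fell (2.71% of all genes). Pparg, the receptor that drives fat cell formation, had values of 0.60, 0.42 and 0.34 in wild type against -0.05, -0.38 and -0.55 in null pools. Wild type and null did not overlap, and the gene fell 1.72-fold (-0.78 ± 0.15, adjusted p = 0.0266). Cebpa, which acts with Pparg, fell by 0.53 (adjusted p = 0.0471), Nr1h3, the oxysterol receptor LXR alpha, by 0.60 (adjusted p = 0.0353), Ebf1 by 0.72 (adjusted p = 0.0463) and Rxra, the partner receptor of Pparg, by 0.29 (adjusted p = 0.0435). Each of these 5 falls was smaller than those of Lep, Npr3 and Mest.

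Lists of lipid handling differed in their medians, with 0.02 for synthesis, -0.33 for fatty acid uptake, -0.40 for the lipid droplet and -0.51 for receptors that control lipolysis. Among the 20 measured genes of fatty acid and triglyceride synthesis 10 were below and 10 above 0, with Dgat2 fallen and Elovl5 risen. Dgat2, which makes the last step of triglyceride synthesis, had values of 0.43, 0.20 and 0.34 in wild type against -0.44, -0.34 and -0.36 in null pools, a difference of -0.70 ± 0.16 (adjusted p = 0.0365). Fasn, the fatty acid synthase, had overlapping pools and a difference of 0.05 ± 0.22 (adjusted p = 0.913). Lipoprotein lipase, Lpl, fell by 0.51 (adjusted p = 0.0478), while Cd36, a fatty acid translocase, just missed the threshold at -0.93 ± 0.25 (adjusted p = 0.0521). Of 15 measured genes of the lipid droplet 14 were below 0 (56.6% of all genes). Only Aqp7, the channel for glycerol, fell (-1.17 ± 0.27, adjusted p = 0.0361). Among receptors that control lipolysis Tshr fell by 0.65 (adjusted p = 0.034), and Ffar4, a receptor for long-chain fatty acids, differed by -1.13 ± 0.33 without passing (adjusted p = 0.0679).

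No gene of fatty acid oxidation (16 measured) and none of the brown and beige list (13 measured) passed. Ucp1, the uncoupling protein of brown fat, had overlapping pools, from -2.05 to 1.95 in wild type and from -2.53 to -1.05 in null, and a difference of -1.41 ± 1.51. On the list of insulin signalling and glucose uptake 2 of 15 measured genes rose (3.21% of all genes) and none fell (2.71%). Grb14, an adaptor that inhibits the insulin receptor, had values of -1.25, -1.03 and -1.45 in wild type against 0.11, 0.78 and 0.52 in null pools, a rise of 1.71 ± 0.29 (adjusted p = 0.0213). Igf1r, the receptor of insulin-like growth factor 1, rose by 1.004 ± 0.18 (adjusted p = 0.0225), and 4 of its 5 probe sets were higher. Both are also expressed outside fat cells. Slc2a4, the insulin-regulated glucose transporter, differed by -0.36 ± 0.16 and did not pass (adjusted p = 0.197).

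Of the 22 measured macrophage genes 18 were below 0 and none passed. Adgre1, a surface receptor that marks macrophages, differed by -0.46 ± 0.18 with overlapping pools (adjusted p = 0.148), and Mrc1, the mannose receptor, by -0.94 ± 0.28 (adjusted p = 0.0728). The chemokine Ccl2 differed by -0.70 ± 0.30 (adjusted p = 0.182). Of the 21 measured chemokines and cytokines 16 were below 0 and 5 above, against 56.6% of all genes below 0. Their median was -0.15, and differences ran from -1.51 to 4.27. None rose and 1 fell: Ccl11, the eosinophil attractant eotaxin. It had values of 0.51, 0.97 and 1.501 in wild type against -0.12, -0.50 and -0.93 in null pools (-1.51 ± 0.35, adjusted p = 0.0375). Col15a1, on the list of progenitors and fibroblasts, fell by 0.59 (adjusted p = 0.0292). None of the 23 measured genes of the matrix list, which does not hold Col15a1, passed.

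**Figure D2:**
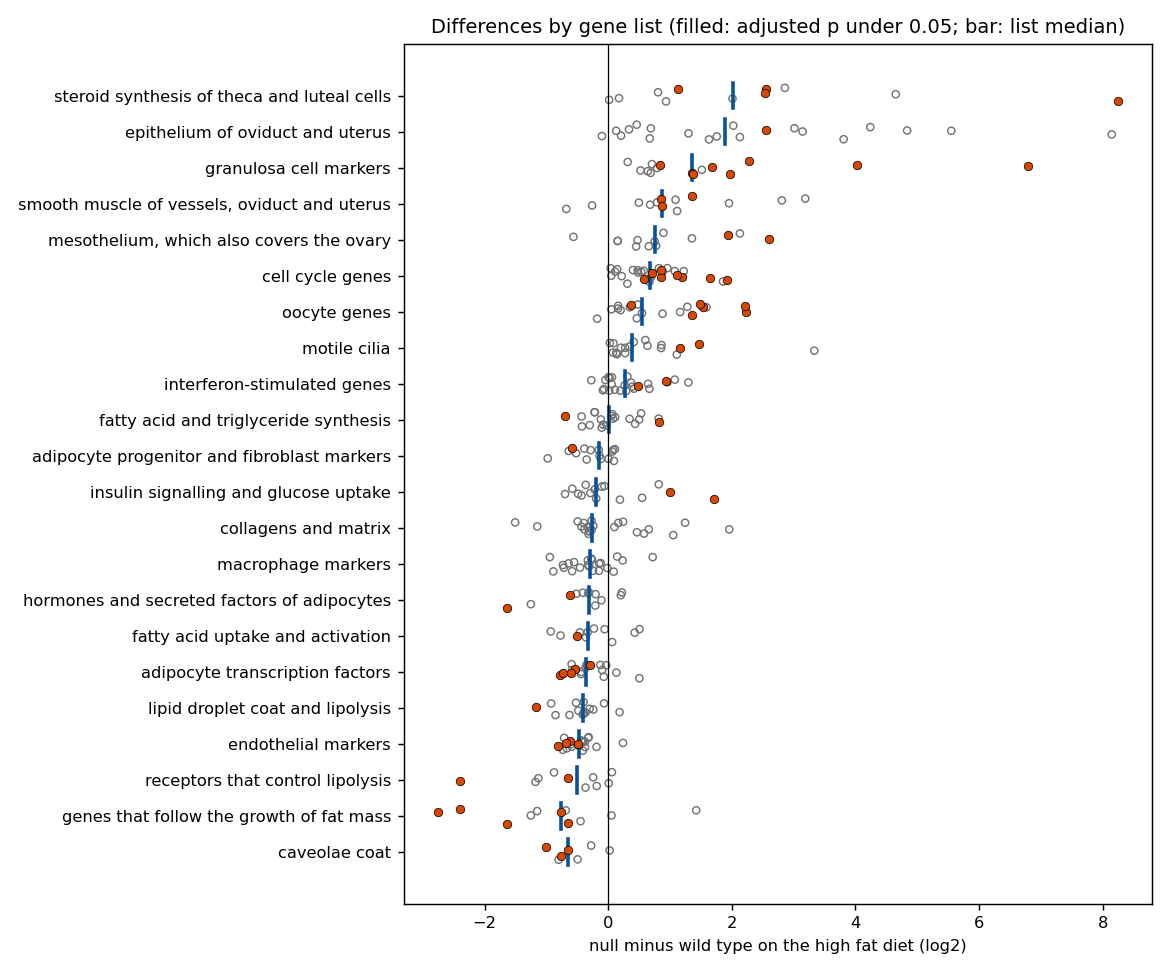
Null minus wild type difference on the high fat diet (horizontal axis, log2) for each measured gene of the lists, 1 point a gene, with genes past the threshold filled and the list median marked. The medians of the endothelial and macrophage lists and of all adipocyte lists drawn except that of fatty acid and triglyceride synthesis lie below 0, and granulosa, steroid and oviduct lists centre above it.

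The 12 largest falls among named genes with separated groups included Mest, Npr3, Lep and Ccl11. A further 8 genes were Rnase2a, Prr32, Folh1, Pcolce2, Tfpi2, Pla2g2e, Kcnc2 and Fgf13. Rnase2a, an eosinophil-associated ribonuclease, had values of 1.35, 1.71 and 2.79 in wild type against -0.59, -0.71 and -0.98 in null pools, a 6.56-fold fall (adjusted p = 0.0137). Pla2g2e, a secreted phospholipase, had values of 2.13, 0.95 and 1.98 in wild type against -0.18, 0.19 and 0.08 in null pools, a 3.14-fold fall (adjusted p = 0.0197). In both genes the lowest wild type pool lay well above the highest null pool. Folh1, which encodes a folate hydrolase, fell 3.83-fold and had the smallest adjusted p of the 12, 0.0116.

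Promoters of the fallen adipocyte genes were read because C/EBP factors and Pparg act together at adipocyte genes. Of the 16 genes, 11 had an entry in the RefSeq table of promoters (GRCm38.p6), with 20 start sites, each covering 250 bases before and 50 after the start. The letters TTGCNNAA, the core of a C/EBP motif, were found on either strand in 4 of the 20 promoters (20%), against 10.8% of all 32851 promoters and 8.5% of those of all fallen genes. A match describes these letters only. The promoters that hold it are those of Cav2, Lep, Mest and Pparg. The last 3 of these are shown, with the match in capitals, as examples of a hormone, a gene of fat expansion and a transcription factor among the fallen adipocyte genes. All lie on the plus strand of chromosome 6, at chr6:29059971-29060270 for Lep, chr6:30733256-30733555 for the upstream start of Mest and chr6:115421816-115422115 for the start of Pparg that lies furthest downstream in the table. The match of Lep begins at position -55 from the start site and reads the same on both strands. That of Mest begins at -155. Pparg has a pair of matches, at -215 and -16 from its start, the latter on the minus strand.
Lep: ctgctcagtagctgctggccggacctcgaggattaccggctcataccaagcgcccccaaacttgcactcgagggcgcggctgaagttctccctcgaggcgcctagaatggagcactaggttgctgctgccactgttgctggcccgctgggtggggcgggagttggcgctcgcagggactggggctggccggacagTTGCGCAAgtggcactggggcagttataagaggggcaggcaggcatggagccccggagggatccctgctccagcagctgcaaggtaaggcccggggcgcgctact
Mest: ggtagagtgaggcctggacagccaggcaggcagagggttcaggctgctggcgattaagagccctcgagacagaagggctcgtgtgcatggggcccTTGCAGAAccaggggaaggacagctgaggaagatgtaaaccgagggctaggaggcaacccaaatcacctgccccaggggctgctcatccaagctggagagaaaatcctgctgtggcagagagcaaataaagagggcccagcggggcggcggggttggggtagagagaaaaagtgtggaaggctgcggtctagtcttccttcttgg
Pparg: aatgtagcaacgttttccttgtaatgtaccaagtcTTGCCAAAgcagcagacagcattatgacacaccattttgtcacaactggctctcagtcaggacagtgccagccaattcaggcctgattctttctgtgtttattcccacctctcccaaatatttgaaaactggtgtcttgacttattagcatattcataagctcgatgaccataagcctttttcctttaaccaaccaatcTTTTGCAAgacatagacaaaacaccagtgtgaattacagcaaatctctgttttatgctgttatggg

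Ovary and oviduct genes lay higher in the null high fat pools. Over the 83 measured genes the median difference was 0.88, with 81 above 0 against 43.4% of all genes. Of the 83, 21 rose (3.21% of all genes) and none fell. The groups were separated with the null higher for 68 (14.9% of all genes). Granulosa cells, which surround the oocyte and make inhibin and estradiol, had the most calls. Of 15 measured markers 8 rose (3.21% of all genes), and the median was 1.36. Inha, the alpha subunit of inhibin, had values of -5.78, -5.27 and -5.78 in wild type against 0.15, 1.89 and 1.51 in null pools. The wild type pools were close to each other and far below every null pool, and the rise was 6.79 ± 1.32, or 111-fold (adjusted p = 0.0261). With quantile normalization it was 4.86 and missed the threshold (adjusted p = 0.0523). Without a measure of background such folds hold only on this scale. Hsd17b1, the granulosa enzyme that forms estradiol, rose by 4.03 ± 0.75 (adjusted p = 0.0242). Foxl2, the factor that keeps granulosa cell identity, rose by 1.36 (adjusted p = 0.0299), and Amhr2, the receptor of anti-Müllerian hormone, by 1.68 (adjusted p = 0.0413). Nr5a2, an orphan nuclear receptor of granulosa and luteal cells, rose by 2.27 (adjusted p = 0.0226). The activin subunit Inhba rose by 1.96 (adjusted p = 0.0472), but 1 of its 2 probe sets went the other way. Fst, the activin antagonist follistatin, rose by 1.37 (adjusted p = 0.0439), and Gata6 by 0.85 (adjusted p = 0.0413).

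Steroid synthesis of theca and luteal cells rose in 4 of 11 measured genes (3.21% of all genes). Cyp11a1, which cuts the side chain of cholesterol in the first step, had values of -2.10, -2.26 and -2.37 in wild type against -0.07, 0.43 and 0.60 in null pools, a 5.9-fold rise (adjusted p = 0.0242). Its 3 probe sets disagreed in size, with differences from 0.05 to 7.51, and with the median of the probe sets in place of their mean the difference was 0.26 and the call was lost (adjusted p = 0.109). The median of the steroid list then went from 2.01 to 1.17. Fdx1, its electron donor, rose by 2.54 ± 0.31 (adjusted p = 0.0112). Hsd3b1, the next enzyme of the pathway, had values of -6.16, -8.86 and -8.16 in wild type against 0.16, 0.65 and 0.78 in null pools. The wild type pools lay far below, and the rise of 8.26 ± 1.86 (adjusted p = 0.0345) was the largest of all 18194 genes. Ptgfr, the receptor of prostaglandin F2 alpha in luteal cells, rose by 1.13 (adjusted p = 0.0225). Cyp17a1, the theca enzyme of androgen synthesis, differed by 4.65 ± 1.37 without passing (adjusted p = 0.0693), and Star, which delivers cholesterol to mitochondria, by 2.86 ± 1.26 (adjusted p = 0.191). In a fit on the 6 high fat arrays alone both passed (limma, adjusted p = 0.0201 and 0.00967). That fit gained 4 named calls and lost 18. Gata6 (adjusted p = 0.066) and the oocyte gene Nobox (adjusted p = 0.0951) were among those lost.

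Among the other largest rises were Mgarp, Hao2, Akr1cl, Speer4cos, Prss35, Acsbg1, Kctd14, Prap1 and Bex4, with rises from 4.12 for Bex4 to 6.01 for Mgarp. None of these is on a list. Prap1 was low in all wild type high fat pools, from -0.58 to -0.37, and high in the null pools, from 2.998 to 4.77.

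Oocyte genes rose in 6 of 19 measured members (3.21% of all genes). Zp3, a protein of the zona pellucida around the egg, had values of -1.33, -1.10 and -1.69 in wild type against 0.13, 1.37 and 1.07 in null pools, a 4.69-fold rise (adjusted p = 0.0292). Zp2 rose by 1.53 (adjusted p = 0.0455), Oosp1 by 2.22 (adjusted p = 0.0226), Padi6 by 1.36 (adjusted p = 0.0351), Tcl1 by 1.48 (adjusted p = 0.0358) and Nobox by 0.37 (adjusted p = 0.0481). Epithelial genes of oviduct and uterus had a median of 1.89. The null was separated higher for 18 of 20 measured genes (14.9% of all genes), but 1 rose. That was Emx2, a factor of the reproductive tract, with 2.55 ± 0.65 (adjusted p = 0.0471). Ovgp1, the oviductal glycoprotein, had values of -3.90, -3.80 and -4.10 in wild type against 3.74, 4.13 and 4.77 in null pools. All null pools lay far above all wild type pools, yet the difference of 8.15 ± 2.16 did not pass (adjusted p = 0.0525), since the spread is shared with the casein pools, where Ovgp1 ran from -4.39 to 4.09. Epcam, an adhesion molecule of epithelia that the mammary gland shares, differed by 2.02 ± 0.71 (adjusted p = 0.112). On the high fat arrays alone Ovgp1 and Epcam both passed (adjusted p = 7.0e-05 and 0.0156). Of the 18 measured genes of motile cilia, Rsph1 and Rsph4a, parts of the radial spoke, rose by 1.48 (adjusted p = 0.0374) and 1.16 (adjusted p = 0.033), and Foxj1, the master factor of cilia, differed by 1.11 ± 0.39 (adjusted p = 0.108).

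Some lists hold genes that ovary, oviduct and fat share. Of 28 measured cell cycle genes all were above 0 (43.4% of all genes) and 8 rose (3.21% of all genes). Among the 8 were Ccnb2 by 1.91 (adjusted p = 0.0489), Cdc20 by 1.19 (adjusted p = 0.0353) and Rrm2 by 1.11 (adjusted p = 0.0436). Mki67, the proliferation marker, differed by 1.08 ± 0.37 and did not pass (adjusted p = 0.101). The mesothelial genes Wt1 and Clu, both also active in the ovary, rose by 2.61 (adjusted p = 0.0316) and 1.93 (adjusted p = 0.0468). Of 13 measured smooth muscle genes 3 rose (3.21% of all genes), Smtn by 1.36 (adjusted p = 0.0427). Interferon-stimulated genes rose in 2 of 24 measured members, a count to be read against the 3.21% of all genes that rose: Igtp by 0.49 (adjusted p = 0.0322) and Usp18 by 0.94 (adjusted p = 0.0461). Hdc, which makes histamine and is on the list of eosinophils and mast cells, rose by 2.58 ± 0.66 (adjusted p = 0.0471). Wfdc18, on the mammary list, rose by 3.56 ± 0.91 (adjusted p = 0.0477).

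For the ovarian genes the letters searched were CAAGGNCA, the motif of NR5A1, on either strand. Of the 18 risen genes of the granulosa, steroid and oocyte lists, 14 had promoters in the table, 16 in number. The motif stood in 1 of them, that of Amhr2 (6.25%), against 6.71% of all promoters. TTGCNNAA stood in 3 of the 16 (18.8%), those of Cyp11a1, Inhba and Nr5a2, a share close to that of the fallen adipocyte genes. It stood in 7.98% of the promoters of all risen genes. The Cyp11a1 promoter is printed because it holds this match on the side of the genes that rose. It lies at chr9:58014702-58015001 of GRCm38.p6 on the plus strand, and the match in capitals begins at position -132 from the start site. The last motif searched, GTTGCCA of RFX factors, was in none of the promoters of the risen ovary genes or the fallen adipocyte genes. It was in 4.38% of all promoters, 5.77% of those of all risen genes and 1.62% of those of all fallen genes. In sets of 16 and 20 promoters its absence says little. The risen genes of the oviduct and cilia lists had only 1 promoter in the table, without a match.
Cyp11a1: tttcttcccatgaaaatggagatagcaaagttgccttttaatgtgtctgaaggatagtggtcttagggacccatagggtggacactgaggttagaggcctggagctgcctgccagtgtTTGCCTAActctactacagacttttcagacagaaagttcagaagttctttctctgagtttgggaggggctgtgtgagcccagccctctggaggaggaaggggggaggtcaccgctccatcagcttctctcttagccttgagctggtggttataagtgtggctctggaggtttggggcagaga

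On the high fat diet the ovary and oviduct list medians of a pool moved with the genotype. More cells of these tissues and more RNA per cell cannot be told apart here. The median of the ovary lists was -0.64, -0.61 and -0.76 in the wild type high fat pools and 0.17, 0.61 and 0.79 in the null high fat pools. That of the oviduct lists was -0.25, -0.42 and -0.29 in wild type against 0.11, 0.61 and 0.77 in null. Neither overlapped. Within the null group Pparg was highest in pool 1, which had the lowest ovary median, and lowest in pool 3, which had the highest (-0.05, -0.38 and -0.55). Cav1, with -0.19, -0.35 and -0.61, and Npr3, with -1.11, -1.67 and -1.90, had that order as well, and so did Lep. Dgat2, with -0.44, -0.34 and -0.36, did not, nor did Mest, which was highest in pool 2. In the wild type high fat pools Pparg did not have that inverse order: it was lowest in pool 3, which had the lowest ovary median. Npr3 did have it there. These genes are examples, and the order was not counted over all adipocyte genes. There are 3 pools a group, and no test was made of the order.

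**Figure D3:**
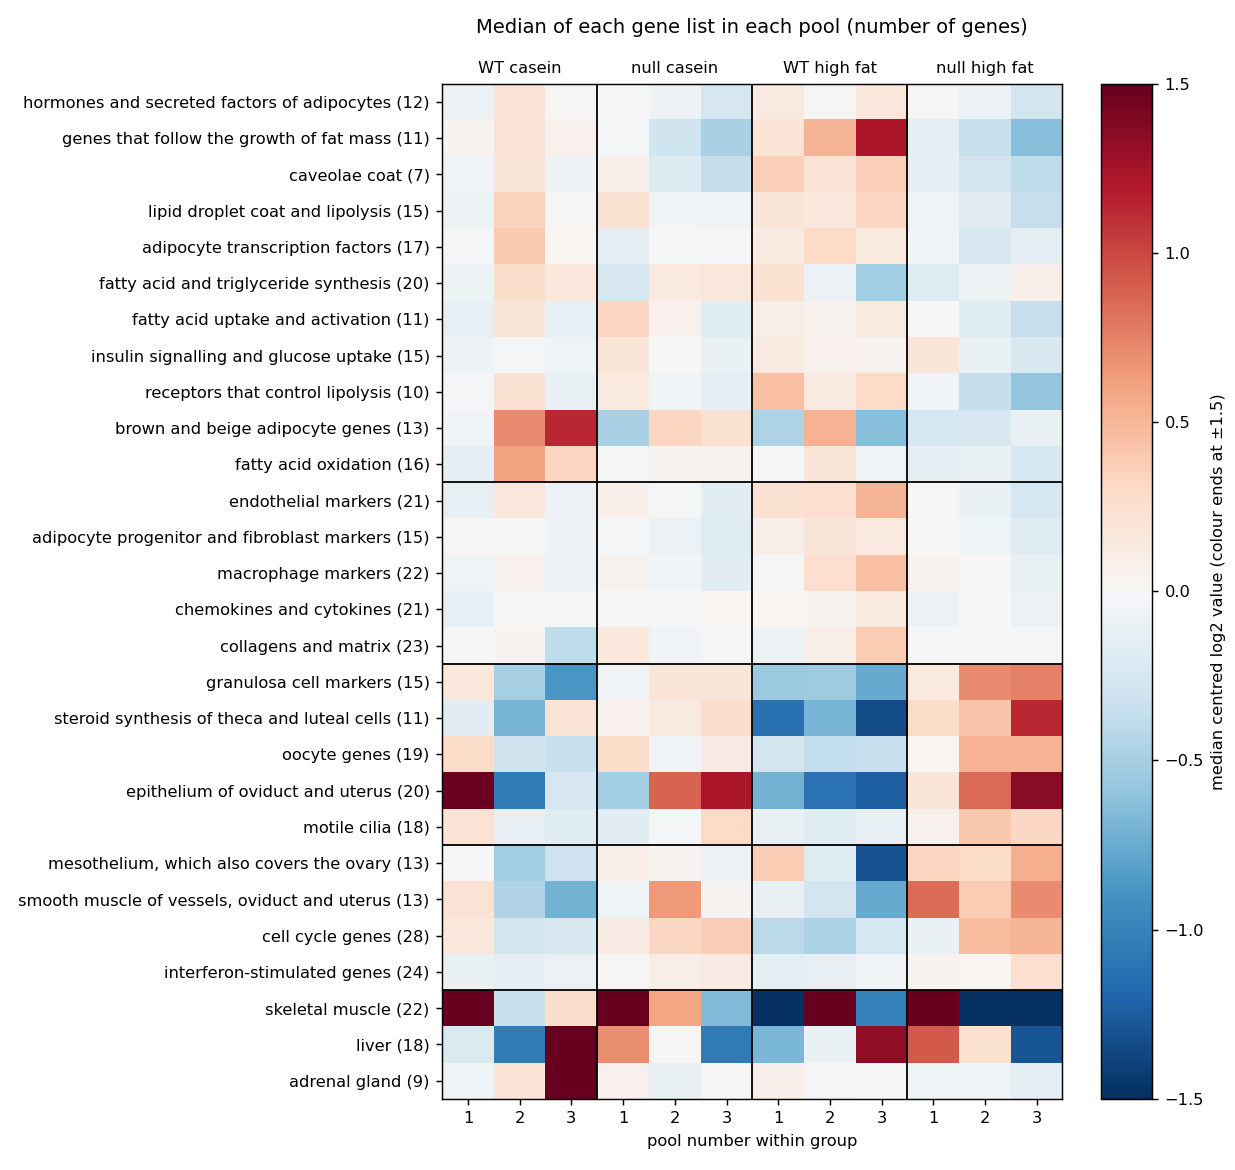
Median value of each gene list in each of the 12 pools (colour, centred log2 scale, limited at the ends of the bar), with lists as rows and pools as columns in their 4 groups. Ovary and oviduct lists are low in the 3 wild type high fat pools and high in the 3 null high fat pools, and the skeletal muscle list is high in single pools of both genotypes.

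When the ovary list median of each pool entered the fit as a covariate, 0 genes passed in limma (smallest adjusted p = 0.661; 1054 genes at an unadjusted p under 0.05), and with the oviduct median 0 passed as well (smallest adjusted p = 0.16; 1410 genes). On the high fat diet the genotypes do not overlap in either median, so the covariate also removes precision. The median SE of a gene went from 0.11 to 0.23 with the ovary and 0.15 with the oviduct covariate. On casein the genotypes overlap: the ovary median was 0.04 in wild type casein pool 1 and -0.04 in null casein pool 1. The median difference of the 137 adipocyte genes went from -0.25 to 0.15 and -0.06, and that of the 83 ovary and oviduct genes from 0.88 to -0.19 and 0.20. The ovary covariate is the median of the granulosa and steroid lists, and the oviduct covariate that of the oviduct epithelium and cilia lists. Where a list makes up the covariate, its loss is no finding. The oocyte list is in neither, and its median went from 0.55 to -0.18 and 0.37. Pparg went from -0.78 to 0.03 ± 0.22 with the ovary covariate, Cebpa from -0.53 to 0.16 ± 0.21, Aqp7 from -1.17 to 0.15 ± 0.43 and Cav1 from -0.65 to -0.08 ± 0.23. Endothelial genes went from a median of -0.47 to 0.11. Mest was at -1.41 ± 1.01, Npr3 at -0.75 ± 0.62 and Lep at -0.55 ± 0.56, and none of the 3 passed. With the oviduct covariate the same 3 genes were at -2.00, -1.46 and -1.21.

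A smaller set of genes had a difference at least as large with both covariates as without: 42 of the 493 that fell and 23 of the 584 that rose. This set was chosen by its values and is a description. Dgat2 went from -0.70 to -0.79 ± 0.38 and -0.94, and Pla2g2e from -1.65 to -1.68 ± 0.66 and -2.02. Col15a1 (-0.59, then -0.73 and -0.75) and Slc4a1, the anion exchanger of red cells (-0.81, then -0.82 and -0.89), were also among them. Others were singled out after their values were seen. Slc16a12, a monocarboxylate and creatine transporter, had values of 0.98, 1.29 and 1.30 in wild type against -0.09, 0.08 and -0.08 in null pools. Its difference was -1.22 ± 0.13 without a covariate (adjusted p = 0.00908), -1.29 ± 0.31 with the ovary and -1.26 with the oviduct covariate. Olfm1, a secreted olfactomedin, had values of 0.86, 0.56 and 1.03 in wild type against -0.37, -0.36 and -0.11 in null pools (-1.10, then -1.14 and -1.22).

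Tpi1, the glycolytic triose phosphate isomerase, fell by 0.52 (adjusted p = 0.0161) and was at -0.74 ± 0.16 and -0.62 with the covariates. Pank3, which makes the first step of coenzyme A synthesis, fell by 0.73 (adjusted p = 0.0292) and was at -1.04 ± 0.34 and -0.92. Mtarc1, an amidoxime-reducing enzyme of the outer mitochondrial membrane, went from -1.03 to -1.24 and -1.27, and Col5a3, a collagen chain, from -0.76 to -0.89 and -0.85. On the side of the rises Vnn1, a pantetheinase, had values of -1.54, -1.08 and -0.999 in wild type against 0.90, 0.51 and 0.63 in null pools. Its rise of 1.89 ± 0.33 (adjusted p = 0.0225) became 2.06 ± 0.79 and 2.46 with the covariates. Ephx2, the soluble epoxide hydrolase, had values of -0.49, -0.50 and -0.41 in wild type against 0.21, 0.24 and 0.24 in null pools (0.70, then 1.38 and 1.03). Rspo3, an amplifier of Wnt signalling, rose by 1.11 (adjusted p = 0.043), although 1 of its 2 probe sets went the other way.

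**Figure D4:**
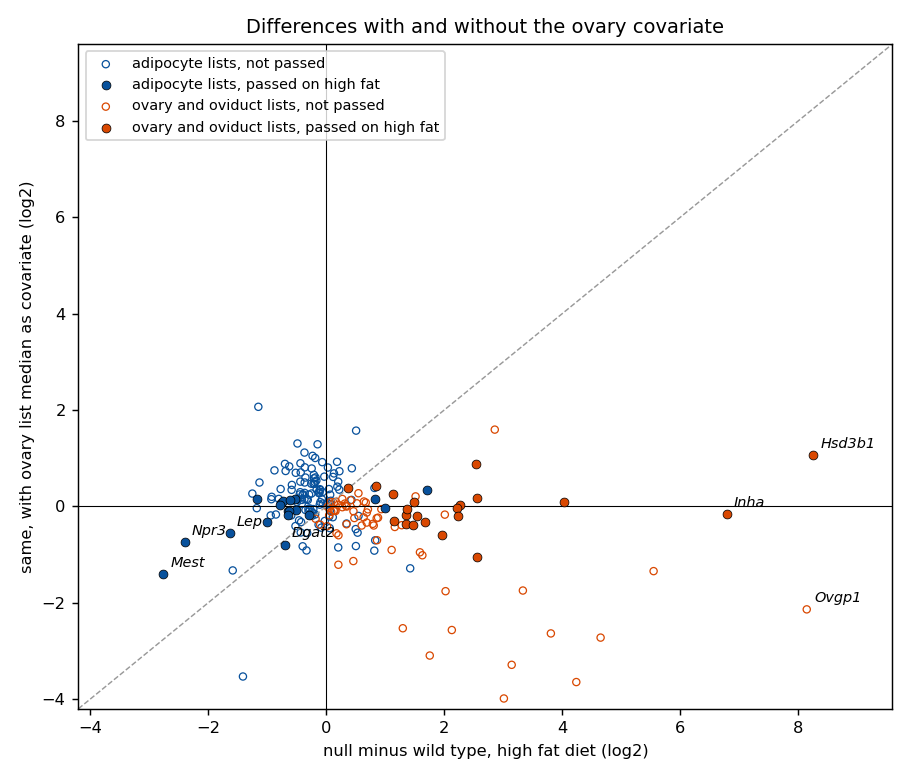
Null minus wild type difference on the high fat diet (horizontal axis, log2) against the same difference with the ovary list median as a covariate (vertical axis, log2), 1 point a gene, blue for adipocyte lists and orange for ovary and oviduct lists, filled where the gene passed without the covariate. Points on the dashed line do not move: Dgat2 lies near it, while most filled blue points move towards 0 on the vertical axis. Inha and Hsd3b1 do so too, but both are on the lists that make up the covariate, so their move is no finding.

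The casein pools give the same genotypes in other tissue pools. No gene passed there in limma (0 of 18194; smallest adjusted p = 0.184; 1478 genes at an unadjusted p under 0.05), and the groups did not overlap for 2178 genes (12%). Of the 584 genes that rose on the high fat diet 559 (95.7%) were also higher in the null on casein, and of the 493 that fell 452 (91.7%) were also lower, against 68% of all genes with the same sign on both diets. The casein differences were smaller, with a median of 0.30 against 0.76 for the genes that rose and -0.20 against -0.55 for those that fell. These genes were chosen by their high fat values, which favours larger differences there, so the sizes do not compare the diets. Lep differed by -0.88 on casein, with 0.13, 0.60 and 0.32 in wild type against -0.13, -0.74 and -0.71 in null pools, and Mest by -1.17. Npr3 had casein values of 0.05, 0.49 and 0.21 in wild type against -0.02, -1.34 and -1.48 in null pools. In these 3 genes null casein pool 1 lay close to the wild type pools and the other null pools lay well below. The ovary list medians of the null casein pools were -0.04, 0.17 and 0.23, so pool 1 was the lowest of them. Aqp7 and Erg, both fallen on the high fat diet, differed by 0.00 on casein.

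High values of ovarian genes were also found in wild type pools on casein. The Inha value of wild type casein pool 1, 0.73, was as high as those of the null casein pools (-0.15, 0.72 and 0.69), while the other wild type casein pools were at -5.68 and -5.04. Ovgp1 was 3.90 in that pool and -3.09 in null casein pool 1. Wild type casein pool 3 was high for Hsd3b1 (1.14) and for Star (4.30), and low for Inha. Lep was 0.13, Mest 0.04 and Npr3 0.05 in wild type casein pool 1, the lowest of the wild type casein pools for each, and each of these lay above all null casein pools. The interaction test, which asks whether the genotype difference itself differed between the diets, called 0 genes (limma, smallest adjusted p = 0.79; 1113 genes at an unadjusted p under 0.05). It called 10 genes without wild type casein pool 2 and 1 without pool 3.

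**Figure D5:**
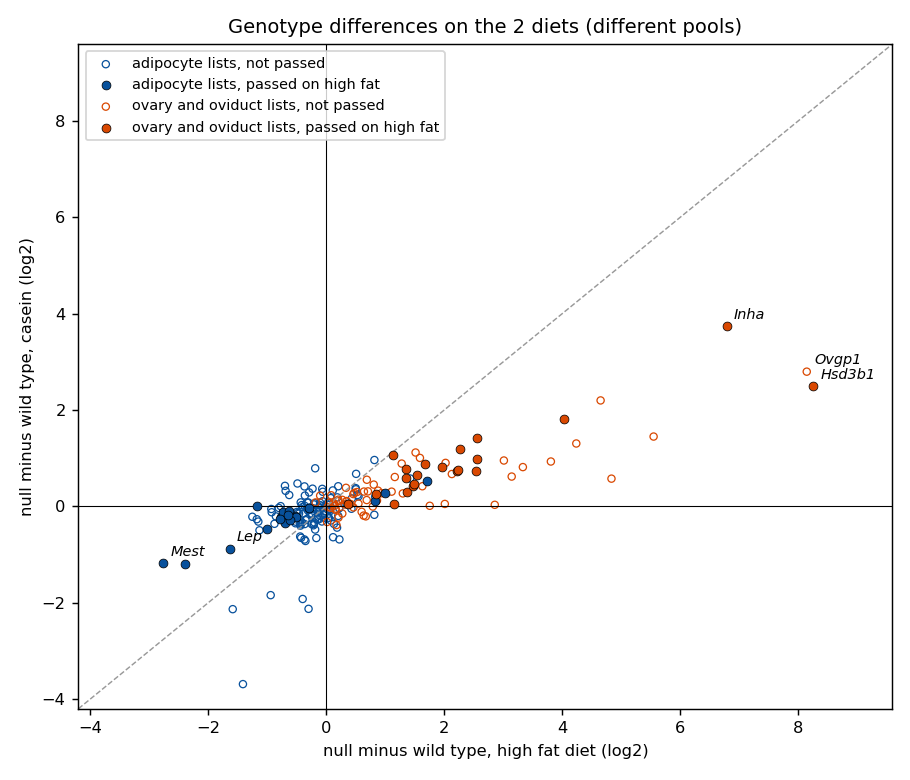
Null minus wild type difference on the high fat diet (horizontal axis, log2) against that on casein, from other pools (vertical axis, log2), 1 point a gene, coloured and filled as for the lists and calls on the high fat diet. Lep and Mest lie in the lower left and Inha, Hsd3b1 and Ovgp1 in the upper right, between the dashed line of equal differences and the horizontal line at 0.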

How the data were processed

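Fat pad RNA from pools of animals was measured on 12 Affymetrix arrays, 3 a group. The submitters' processing notes list GCOS and RMA but state neither version nor order. The deposited values are on a log scale, taken as the log2 scale of RMA. The base itself is not stated. In the deposited table the median of each of the 45101 probe sets over the 12 arrays is 0 (tolerance 1e-06), so levels are lost. The labels' extraction protocol speaks of rats, while the organism is given as mouse.

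Probe sets with 1 gene symbol were kept (34958; 932 with several and 9211 with none were left out), and 34754 symbols were updated through a RefSeq table of GRCm38.p6, used for names and promoters. Probe sets of 1 gene were averaged, and 9012 of 18194 genes have more than 1. The test was that of limma (version 3.58.1, R version 4.3.3; lmFit, contrasts.fit and eBayes on 4 group means, 8 residual and 2.5 prior degrees of freedom), two-sided, with Benjamini-Hochberg adjustment over all genes and a threshold of 0.05. Values after ± are standard errors with 3 pools a group. The fit was tested on simulated data with known changes.

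The members, the 36 gene lists and the tests were chosen with earlier results of these data known. Some genes stand on several lists. Genes named are Ncf1, the 12 largest rises and falls past the threshold with separated groups and without predicted genes, up to 8 passing members and up to 4 others of each list, and a fixed set of markers. Genes said to be singled out after their values were seen fall outside that rule. Of 599 listed genes, 550 were measured; others, such as Plin1, Adrb3 and Cfd, were not analysed here.

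The labels do not say that pool numbers pair the samples, and the main fit did not pair them. Deviations of same-numbered pools correlated from -0.61 to 0.59. Between the null casein and null high fat groups they correlated at 0.55 for pools 1, -0.01 for pools 2 and 0.59 for pools 3. Crossed pools 1 and 3 of these groups were at -0.60 and -0.55. With deviations from a mean of 3 pools, these values cannot settle whether the numbers pair the pools. Alternatives were quantile normalization, other ways to represent a gene, a filter on the span of a probe set, array weights, the high fat arrays alone, the pool number as a block, the ovary or oviduct median as a covariate, and pools left out. For arrays, their number limits the precision.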

Additional observations from a re-analysis of the deposited data

How the results depend on the processing

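The count of 1077 genes was 523 with quantile normalization, 5120 with array weights and 437 without the muscle-rich pools, and 0 with the ovary or the oviduct covariate. Leaving out 1 pool at a time gave 0 to 1617 genes, and 0 to 10 for the interaction. The array weights did not converge and gave null high fat pool 2 a weight of 9.503. With the replicate block on pool number, for which the labels state no pairing, the count was 542, of which 497 were among the 1077. Of 103 named genes 40 then lost their call and none gained one. The count stayed within 1.5 times with the high fat arrays alone (1094, of which 711 were among the 1077), the median of probe sets (996, 949), the probe set of largest variance (1049, 828) and the span filter (1199, 950). With the high fat arrays alone 18 of the 103 named genes lost their call. Lower in the null among these were Cav2, Cebpa, Rxra, Lpl, Rarres2, Duoxa1, Pcolce2, Tfpi2, Kcnc2 and Pank3. Higher in the null among these were Gata6, Nobox, Smtn, Cdc20, Rrm2, Igtp, Usp18 and Rspo3. Ovgp1, Epcam, Cyp17a1 and Star gained a call. With quantile normalization 46 of the 103 lost theirs. The median of the adipocyte genes, -0.25, was -0.37 with the probe set of largest variance, 0.15 with the ovary and -0.063 with the oviduct covariate. That of the ovary and oviduct genes, 0.88, was 1.16 with the probe set of largest variance, 1.14 with the span filter, -0.19 with the ovary and 0.20 with the oviduct covariate. Of the 103 genes, 44 changed sign with the ovary covariate. Inha, Foxl2, Amhr2, Fst, Inhba and Cyp17a1, which are among the 44, stand on the lists that make up that covariate. Their change of sign is no finding. Lower before and above 0 after were Cav2 (0.079), Aqp7 (0.15), Pparg (0.034), Cebpa (0.16), Nr1h3 (0.14), Ebf1 (0.12), Erg (0.015), Pcolce2 (0.057), Adipoq (0.58), Retn (0.13), Cd36 (0.15), Adgre1 (0.089), Slc2a4 (0.50), Mrc1 (0.54) and Ffar4 (0.50). Higher before and below 0 after were Igf1r (-0.026), Inha (-0.15), Akr1cl (-0.50), Acsbg1 (-0.43), Kctd14 (-0.30), Bex4 (-0.91), Foxl2 (-0.18), Amhr2 (-0.33), Fst (-0.058), Inhba (-0.60), Oosp1 (-0.039), Zp3 (-0.19), Padi6 (-0.37), Zp2 (-0.19), Emx2 (-1.05), Rsph4a (-0.30), Rsph1 (-0.39), Hdc (-1.02), Clu (-0.74), Cdc20 (-0.36), Rrm2 (-0.40), Ccnb2 (-0.92), Wfdc18 (-1.10), Fasn (-0.21), Ovgp1 (-2.14), Foxj1 (-0.90), Epcam (-1.76), Cyp17a1 (-2.72) and Mki67 (-0.58). With the oviduct covariate 5 changed sign: Adipoq (0.18), Fasn (-0.15), Foxj1 (-0.14), Epcam (-0.17) and Slc2a4 (0.031). Foxj1 and Epcam stand on the lists that make up the oviduct covariate. Fasn also turned with quantile normalization (-0.027) and ran from -0.20 (without wild type high fat pool 3) to 0.24 with 1 pool left out, and Adipoq from -0.36 to 0.018 (without null high fat pool 3); Ucp1 turned without the muscle-rich pools (0.13). The cause was not tested. Signal over background cannot be read from centred values.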

Other observations

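Lists of tissues other than fat, ovary and oviduct gave 3 calls between null and wild type on the high fat diet, Cela1, Slc4a1 and Wfdc18. Of all genes 5.92% were called and 56.6% were below 0, the shares to set beside the counts here. Of 18 measured liver genes 16 were below 0 and none passed, and of 19 measured lymphocyte genes 17 were below 0 and none passed. The adrenal and kidney lists, with 9 and 10 measured genes, had medians of -0.01 and 0.01 and no call. On the pancreas list 1 of 13 measured genes fell, the elastase gene Cela1, by 1.17 (adjusted p = 0.0242). All 6 measured genes of the erythroid list were below 0, 4 of them with the null pools separated lower (17.3% of all genes), and Slc4a1 fell by 0.81 (adjusted p = 0.0378). On the mammary list, where 10 of 15 measured genes were below 0, Wfdc18 rose by 3.56 (adjusted p = 0.0477). On the skeletal muscle list 21 of 22 measured genes were below 0, with a median of -0.49, and none passed.

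Genes were called on the mean of their probe sets, which favours genes whose probe sets agree, and the share over all genes was not counted. Of the called genes with more than 1 probe set, 290 of 301 that fell and 243 of 298 that rose had all probe sets moving the same way. Among all 493 genes that fell, 403 kept their sign with the ovary covariate and 493 with the oviduct covariate. Among all 584 genes that rose, 356 and 584 did. A kept sign says nothing of size. The median of the falls went from -0.55 to -0.19 with the ovary and -0.40 with the oviduct covariate. That of the rises went from 0.76 to 0.09 and 0.44. No gene passed with either covariate.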
